A study of Mus musculus with 6 samples.

Results

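The 7 genes described here are those of MHC class II antigen presentation: H2-Aa, H2-Ab1, H2-Eb1, H2-DMa, H2-DMb1, Cd74 and Ciita. They were chosen by name, all 7 were among the 17975 genes measured, and all 7 passed the filter on low counts that left 13805 genes for testing. RNA had been sequenced from the livers of 3 WT mice and 3 Hom mice, with 1 liver per mouse. Hom mice carried Nek7 fl/fl with Alb-Cre+, so that Nek7 was deleted in hepatocytes, where the albumin promoter drives Cre, while the RNA came from whole liver with all its cell types. The floxed and Cre lines were on a C57BL/6 background. The labels name the other mice as controls and WT and do not say whether these carried a floxed allele or Cre, and neither they nor the sources used here give the age or sex of each of the 6 mice. For its mice in general the study states young animals within a span of a few weeks, controls matched for sex and age, and both sexes in knockout experiments. It also describes liver fibrosis in Hom mice several months old, and which age applies to the sequenced livers is not stated. No treatment is named for the 6 mice.

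MHC class II molecules are pairs of an alpha and a beta chain that carry peptides from engulfed proteins to the cell surface, where CD4 T cells read them. Dendritic cells, B cells and macrophages make them constantly, and other cells can be brought to make them by interferon gamma. The invariant chain Cd74 holds new pairs together on their way to the endosome, the DM pair exchanges the last piece of the invariant chain for a peptide, and Ciita, a coactivator that does not itself bind DNA, switches the whole set of genes on through factors bound at their promoters.

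Transcripts of all 7 class II genes were higher in Hom livers than in WT livers, by 1.33 to 2.39 on the log2 scale with a median of 2.16. Adjusted p values (quasi-likelihood test of edgeR, adjusted by Benjamini and Hochberg over all 13805 genes) ran from 0.00219 to 0.0138, and 7 of 7 genes passed 0.05 as higher and 0 as lower. Of all tested genes, 21.5% passed as higher and 20.1% as lower, and the median log2 fold change over all genes was −0.0018. In each of the 7, all 3 Hom livers lay above all 3 WT livers, a separation that 28.7% of tested genes showed. With 3 mice in each group an exact two-sided permutation test of any single gene cannot give a p under 0.1, and each of the 7 stood at that value. These are bulk measurements, in which a larger number of cells of a type and more RNA per cell cannot be told apart.

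Library totals were close, from 19349418 to 19730236 estimated counts, while the TMM factors, which correct for library composition, were from 0.806 to 0.924 in the WT group and from 1.09 to 1.23 in the Hom group. Nek7, the deleted gene, was at 62.9, 69.1 and 63.7 CPM (counts scaled by library size and TMM factor) in WT livers 1, 2 and 3 and at 14.5, 18.1 and 16.7 CPM in Hom livers 1, 2 and 3. Liver 1 of each group stood apart from its group. Hom 1 had 0 counts of the Y-linked genes Ddx3y and Kdm5d, of which every other liver had at least 630 and 243. By these genes Hom 1 was female and every other liver male, so the groups were not matched for sex. The labels give no sex. Values without WT 1 and Hom 1 together are therefore given below beside the results. Hepatocyte markers were plentiful in all livers, at 199641 to 239298 CPM summed over 20 genes in WT livers and 119979 to 176587 CPM in Hom livers.

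H2-Aa (NCBI Gene 14960) encodes the alpha chain of the I-A molecule and is annotated on chromosome 17, minus strand, 34282744 to 34287823 (GRCm38, GENCODE M21). It was at 54.6, 33.7 and 29.0 CPM in WT livers 1, 2 and 3 and at 120, 265 and 200 CPM in Hom livers 1, 2 and 3. The highest WT liver, WT 1, was well under the lowest Hom liver, Hom 1, at a ratio of 2.21 between them. The log2 fold change was 2.32 (standard error 0.35, adjusted p = 0.00284).

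H2-Ab1 (Gene 14961, plus strand, 34257689 to 34269419) encodes the beta chain that pairs with H2-Aa. It was at 59.0, 38.7 and 33.1 CPM in WT livers and at 117, 244 and 195 CPM in Hom livers, in the same order of livers. The order of the 6 livers was that of H2-Aa, with WT 3 lowest and Hom 2 highest. The log2 fold change was 2.08 (standard error 0.32, adjusted p = 0.00308).

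H2-Eb1 (Gene 14969, plus strand, 34305867 to 34316674) encodes the beta chain of the second class II molecule, I-E. It was at 33.1, 19.8 and 17.3 CPM in WT livers 1, 2 and 3 and at 79.5, 161 and 129 CPM in Hom livers 1, 2 and 3. Of the 7 genes it had the largest log2 fold change, 2.39 (standard error 0.33, adjusted p = 0.00219), and the widest gap between groups, with the lowest Hom liver at 2.40 times the highest WT liver. Mice of the C57BL/6 strain make no I-E alpha chain, since their H2-Ea is a pseudogene, so this transcript has no partner chain there. H2-Ea-ps was not analysed here.

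Cd74 (Gene 16149), the invariant chain, had the most reads of the 7. It was at 193, 117 and 95.4 CPM in WT livers 1, 2 and 3 and at 391, 771 and 649 CPM in Hom livers 1, 2 and 3. The livers fell in the same order as for the 3 chains above. The log2 fold change was 2.16 (standard error 0.34, adjusted p = 0.00352).

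H2-DMa (Gene 14998, plus strand of chromosome 17, 34119541 to 34139101) encodes the alpha chain of the peptide exchange molecule H2-DM. It was at 10.2, 5.00 and 5.65 CPM in WT livers 1, 2 and 3 and at 13.5, 22.1 and 16.9 CPM in Hom livers 1, 2 and 3. WT 1 and Hom 1 were close, at a ratio of 1.32, the narrowest gap among the 7 genes. The log2 fold change was 1.33 (standard error 0.31, adjusted p = 0.0138), and 11.1% of all tested genes had a fold change at least as large.

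H2-DMb1 (Gene 14999, plus strand, 34153072 to 34160230) encodes a beta chain of the same molecule. It was at 7.20, 4.17 and 3.56 CPM in WT livers 1, 2 and 3 and at 11.1, 25.9 and 20.8 CPM in Hom livers 1, 2 and 3. The log2 fold change was 1.95 (standard error 0.38, adjusted p = 0.00760). Its near-identical neighbour H2-DMb2 lies beside it, and reads that fit both could be split either way by the authors' counting, so the level of each is uncertain.

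Ciita (Gene 12265), the coactivator of the others, is annotated on chromosome 16, plus strand, 10480059 to 10528418. It was at 3.69, 1.67 and 1.54 CPM in WT livers 1, 2 and 3 and at 6.95, 12.6 and 11.7 CPM in Hom livers 1, 2 and 3, the lowest levels of the 7. These rest on 25 to 66 counts per WT liver and 149 to 305 per Hom liver. The log2 fold change was 2.17 (standard error 0.39, adjusted p = 0.00570).

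**Figure D1:**
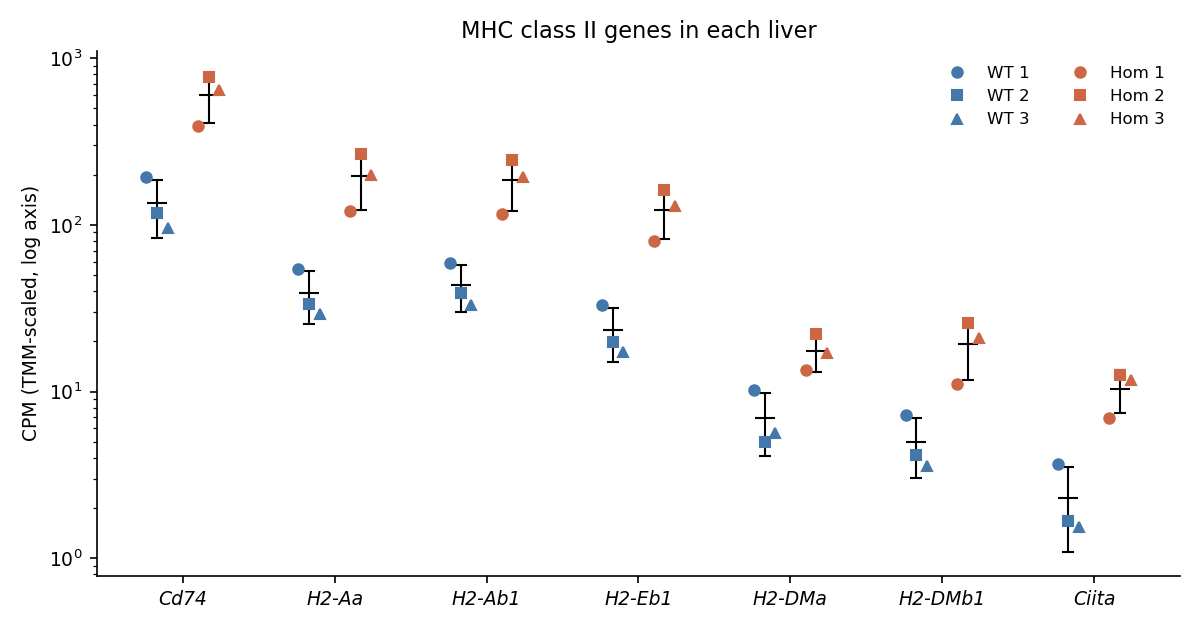
Level of each MHC class II gene in each liver, in TMM-scaled CPM on a log axis; blue points are the 3 WT livers, orange points the 3 Hom livers, and the black bars are the mean ± SD (n = 3). All Hom points lie above all WT points for each gene, WT 1 is the highest WT point and Hom 1 the lowest Hom point in 7 of 7 genes.

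The order of the livers within a group was largely shared by the 7 genes, with WT 3 lowest of the WT group in all but H2-DMa, where WT 2 was lowest. WT 1 was the highest WT liver in 7 of 7, Hom 2 the highest Hom liver in 7 of 7 and Hom 1 the lowest Hom liver in 7 of 7. Within the WT group the highest liver was 1.78 to 2.40 times the lowest, and within the Hom group 1.64 to 2.34 times. The common leukocyte gene Ptprc, which encodes CD45, moved along, at 14.7, 4.68 and 4.98 CPM in WT livers 1, 2 and 3 and 17.1, 31.0 and 26.9 CPM in Hom livers 1, 2 and 3. Its log2 fold change was 1.62 (standard error 0.46, adjusted p = 0.0299). That call was lost when WT 2, WT 3, Hom 2 or Hom 3 was left out (adjusted p of 0.0822 without Hom 3 and 0.0914 without WT 2, for example), and the part of leukocyte number in the class II values was not tested.

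Without WT 1 and Hom 1 all 7 class II genes remained called as higher, and their fold changes were larger. H2-Eb1 was then at 2.98 on the log2 scale (standard error 0.15, adjusted p = 4.85e-04) and H2-DMa at 1.88 (standard error 0.18, adjusted p = 0.00163). Larger values were set in advance, since WT 1 was the highest WT liver and Hom 1 the lowest Hom liver for each of the 7. This fit is thus no test of the result. Over each alternative tried, the 7 log2 fold changes ran from 1.13 to 2.98.

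Per length, in TPM, the order of levels was nearly the same in both groups. In WT livers Cd74 led with 164 ± 82.1 TPM (SD, n = 3), ahead of H2-Ab1 with 56.3 ± 24.4, H2-Aa with 53.6 ± 25.2 and H2-Eb1 with 21.4 ± 10.4. H2-DMb1 followed with 5.98 ± 3.10, H2-DMa with 4.79 ± 3.17 and Ciita with 0.417 ± 0.26 TPM. In Hom livers Cd74 was at 1115 ± 421 TPM, H2-Aa at 408 ± 175, H2-Ab1 at 365 ± 147, H2-Eb1 at 171 ± 67.0, H2-DMb1 at 35.2 ± 15.7, H2-DMa at 22.3 ± 7.64 and Ciita at 3.32 ± 1.05. Neighbours whose ranges over the livers of a group overlapped were H2-Aa and H2-Ab1 and the DM chains H2-DMb1 and H2-DMa in both groups, and also H2-Ab1 and H2-Eb1 in Hom livers. Among all genes of a liver, Cd74 ranked between 505 and 1002 by TPM in the WT livers and between 78 and 185 in the Hom livers. Ciita ranked between 12045 and 13224 in the WT livers and between 10105 and 11124 in the Hom livers.

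Ratios within a liver do not depend on scaling between livers, and several of them separated the groups. TPM values also divide by a gene length, and for some genes these ratios differ from the fold changes in counts. The ratio of H2-Ab1 to H2-Aa was 1.02, 1.09 and 1.08 in WT livers 1, 2 and 3 and 0.915, 0.867 and 0.918 in Hom livers 1, 2 and 3. H2-Ab1 was thus the more abundant transcript of the pair in each WT liver and H2-Aa in each Hom liver. The groups did not overlap, with log2 ratios of 0.085 ± 0.048 against −0.15 ± 0.046 (SD, n = 3).

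H2-Eb1 moved the other way relative to H2-Aa, from a log2 ratio of −1.33 ± 0.022 in WT to −1.24 ± 0.062 in Hom livers, and Cd74 went from 1.60 ± 0.052 to 1.47 ± 0.094. The ratios of the DM chains to H2-Aa, added after the data were seen, were lower in each Hom liver than in each WT liver. H2-DMa went from −3.58 ± 0.33 to −4.16 ± 0.18, and H2-DMb1 from −3.18 ± 0.062 to −3.55 ± 0.090. In counts the gap was wider for H2-DMa, whose log2 fold change was 1.33 against 2.32 for H2-Aa. For H2-Eb1 the separation was marginal, with ratios of 0.4042 in WT 1 and 0.4043 in Hom 2. It was also marginal for H2-DMa, at 0.0652 in WT 2 and 0.0650 in Hom 1, and narrow for Cd74, at 2.91 in WT 3 and 2.88 in Hom 1. Each of these 5 ratios separated the groups at an exact permutation p = 0.1, the smallest that 3 against 3 allows. The ratio of H2-DMb1 to H2-DMa and that of Ciita to H2-Aa overlapped between groups (exact permutation p = 0.3 and p = 0.5). Both depend on the unit. In TPM the mean log2 ratio of Ciita to H2-Aa rose by 0.19, while in counts the fold change of Ciita, 2.17, was below the 2.32 of H2-Aa. That of H2-DMb1 to H2-DMa rose by 0.21 in TPM, with fold changes of 1.95 and 1.33 in counts.

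**Figure D2:**
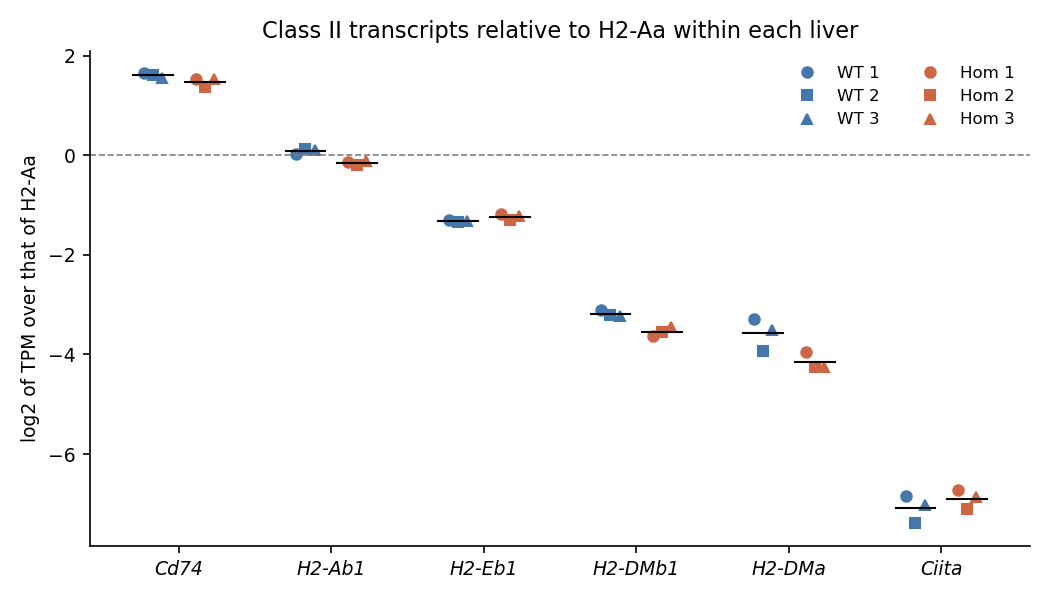
Log2 ratio of the TPM of each other class II gene to that of H2-Aa within the same liver; blue points are WT livers, orange points Hom livers, and black lines the group means. H2-Ab1 lies above 0 in all WT livers and under 0 in all Hom livers, and the DM chains H2-DMb1 and H2-DMa are lower relative to H2-Aa in all Hom livers. For H2-DMa, WT 2 and Hom 1 nearly meet.

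Relative to Ptprc in the same liver, the class II genes did not all separate. H2-Eb1 per Ptprc was 2.25, 4.23 and 3.48 in WT livers 1, 2 and 3 and 4.65, 5.20 and 4.79 in Hom livers, and Ciita per Ptprc was 0.251, 0.356 and 0.309 against 0.407, 0.406 and 0.435. Both were higher in each Hom liver than in each WT liver (exact permutation p = 0.1). For H2-Aa, H2-Ab1, Cd74, H2-DMa and H2-DMb1 the groups overlapped (exact permutation p = 0.2 to p = 0.7). The H2-DMa ratio had the lower mean in Hom livers, at a log2 of −0.50 ± 0.16 against −0.081 ± 0.39. WT 1 had the lowest ratio of the WT group for each gene.

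The other chains of the family had few reads. H2-DMb2, the second DM beta chain, was at 2.35, 1.15 and 0.983 CPM in WT livers 1, 2 and 3 and 1.73, 2.35 and 3.15 CPM in Hom livers, with a fold change of 0.68 on the log2 scale (standard error 0.40, adjusted p = 0.213). H2-Ob, the beta chain of H2-DO, which restrains H2-DM in B cells, was at 0.949, 0.385 and 0.430 CPM in WT livers and 0.560, 1.53 and 1.72 CPM in Hom livers (1.09, standard error 0.55, adjusted p = 0.148). Neither passed the test (0 of 2 by edgeR, 0 by DESeq2 and 0 at an unadjusted p under 0.05), and in both the groups overlapped through liver 1. Without WT 1 and Hom 1 both passed, at 1.37 for H2-DMb2 and 1.99 for H2-Ob (adjusted p = 0.0185 and 0.00865). H2-Oa and H2-Eb2 stayed under the filter, at up to 1.08 and 0.536 CPM.

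Of the 7 genes, 5 lie together in the class II region of the H2 complex. Between the starts and ends of H2-Oa and H2-Eb2, from 34092340 to 34341412 on chromosome 17 (249 kb), GENCODE M21 lists 14 protein-coding genes, and the 5 span 197 kb of it. Of the 7 other tested genes in this interval, 2 were higher (Psmb8 by 0.79 and Tap2 by 0.63 on the log2 scale) and 1 was lower (Brd2, a chromatin reader, at −0.52, adjusted p = 0.0266). Psmb9 and Tap1, which like Psmb8 and Tap2 serve class I presentation, were at 0.79 and 0.79 and did not pass (adjusted p = 0.0538 and 0.0652). All 5 class II members in the interval had larger fold changes than each of these 7 neighbours, whose median was 0.79. The 7 include the class II chains H2-DMb2 at 0.68 and H2-Ob at 1.09, which did not pass. Without WT 1 and Hom 1 the ranking did not hold, with H2-Ob at 1.99 and H2-DMa at 1.88. H2-DMa overlaps Brd2 on the opposite strand at its start, and the strandedness of the counting was not given in the sources used here.

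**Figure D3:**
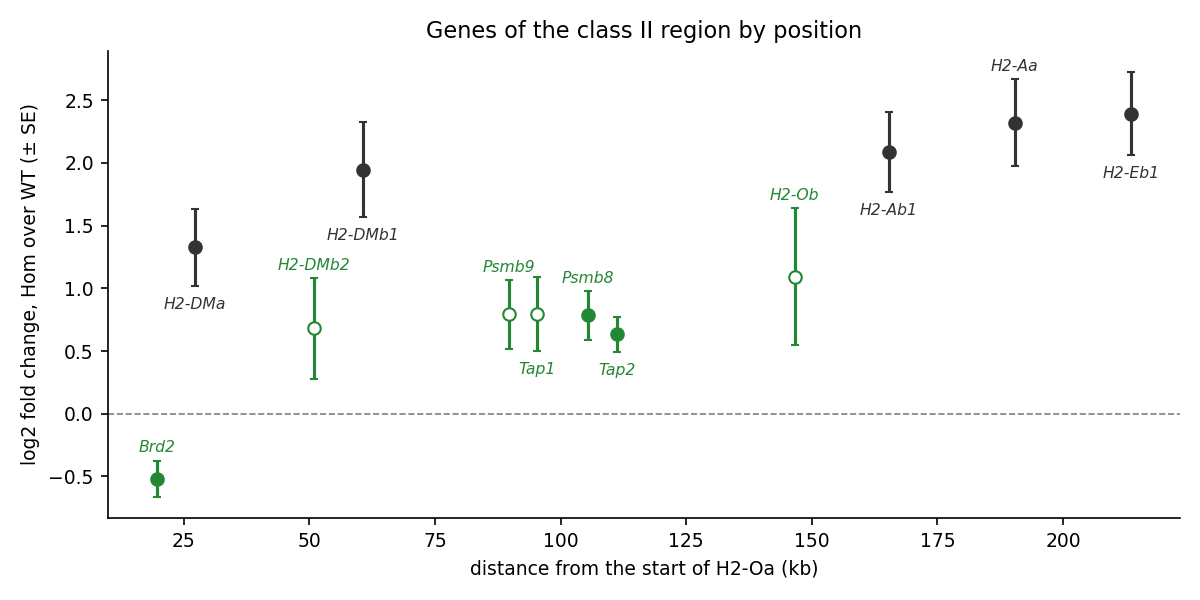
Log2 fold change of Hom over WT (± SE) for the tested genes of the class II region, by distance in kb of the gene's lowest coordinate from that of H2-Oa; black points are class II members, green points other genes, and filled points passed an adjusted p of 0.05. The members lie at 1.33 to 2.39, above the 7 other genes, and Brd2 lies under 0. Among these 7 are the class II chains H2-DMb2 and H2-Ob.

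Class II promoters share an X box, bound by the RFX complex of Rfx5, Rfxap and Rfxank, and a Y box, bound by the NF-Y complex of Nfya, Nfyb and Nfyc, at a fixed spacing, and Ciita docks on this assembly. RefSeq promoter windows (GRCm38.p6, 250 bases before to 50 after the start) were at hand for H2-Aa, H2-Eb1, H2-DMa and H2-DMb1 of the 7, and for H2-DMb2, H2-Oa, H2-Ob and H2-Eb2. H2-Ab1, Cd74 and Ciita had no entry. The stretches shown here are those around the Y box letters of a strongly higher alpha and beta chain, of the beta chain next to it that is hardly transcribed, and of H2-DMb2. Capitals mark TGATTGG, the Y box letters, and GNAAC, the end of the X box, where it lies 26 to 36 bases upstream on the same strand. Each runs 5′ to 3′ on the strand of its gene, in GRCm38.p6 at chr17:34287851-34287925 (minus strand), chr17:34305754-34305828, chr17:34325521-34325595 and chr17:34145105-34145179 (plus strand).
H2-Aa: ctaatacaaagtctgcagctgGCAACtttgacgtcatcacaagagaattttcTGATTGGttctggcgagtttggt
H2-Eb1: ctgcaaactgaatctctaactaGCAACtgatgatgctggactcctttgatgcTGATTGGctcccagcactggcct
H2-Eb2: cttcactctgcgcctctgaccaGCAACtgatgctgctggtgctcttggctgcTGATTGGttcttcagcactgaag
H2-DMb2: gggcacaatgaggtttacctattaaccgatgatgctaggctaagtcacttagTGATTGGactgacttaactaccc

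The pair of letter groups, searched on both strands and chosen after the data were seen, occurred in 6 of the 8 class II windows and in 0.366% of the 27025 genes with a window. Among the members it was in H2-Aa, H2-Eb1 and H2-DMb1 and not in H2-DMa, whose window held the core ATTGG, found in 41.1% of all genes, without TGATTGG. The distance between the first letters of the X and Y groups was 31 bases in H2-Aa and 30 bases in H2-Eb1 and H2-Eb2. TGATTGG alone was in 7 of 8 windows against 9.0% of genes, and the longer CTGATTGG, which contains it, in 4 of 8 against 4.70%. The fuller X box letters CCTAGCAAC were in 1 of 8 (0.944% of genes), CCTAGNAAC in 2 of 8 (1.79%) and CCNAGNAAC in 3 of 8 (6.09%). H2-Eb2 carried the same letters as H2-Eb1 and was at 0.118 CPM in WT and 0.312 CPM in Hom livers on average. A match describes the letters and is no measurement of binding.

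The factors of these promoters did not move together. Rfx5, the DNA-binding subunit of RFX, was at 9.33, 6.80 and 8.42 CPM in WT livers 1, 2 and 3 and at 18.3, 19.7 and 21.8 CPM in Hom livers, with no overlap (1.28 on the log2 scale, standard error 0.14, adjusted p = 0.00112). Its partner Rfxank went the other way, from 29.8, 31.4 and 31.0 CPM to 16.8, 15.0 and 18.8 CPM (−0.87, standard error 0.10, adjusted p = 0.00126). Both calls held in each of 13 alternatives. Nfya was higher by 0.45 (adjusted p = 0.0157, and 0.0503 without Hom 3), while Rfxap at −0.54 (adjusted p = 0.0303) and Nfyb at −0.40 (adjusted p = 0.0255) were lower in the test but kept that call in 4 and 6 of 13 alternatives, and Nfyb changed sign when libraries were scaled by size alone. Nfyc and Creb1, at −0.050 and −0.057, did not pass. Of the 7 factors, 2 were thus higher and 3 lower. The lower count was 1 without WT 1, WT 2 or Hom 3 and without WT 1 and Hom 1 together, and the higher count was 1 without Hom 3.

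**Figure D4:**
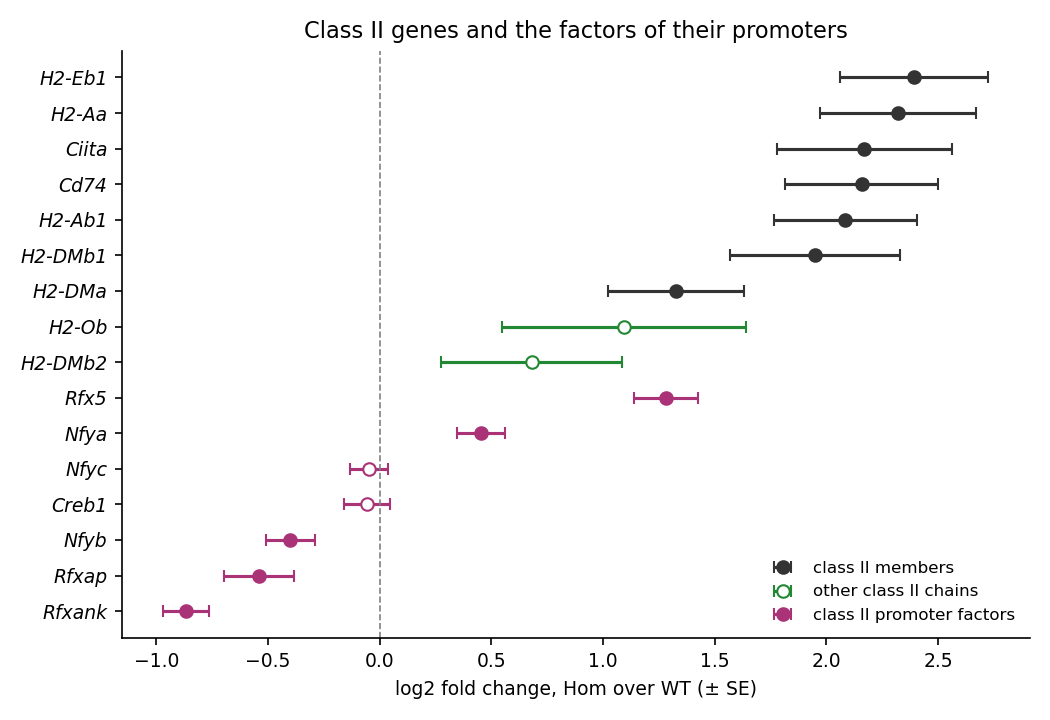
Log2 fold change of Hom over WT (± SE) for the class II members (black), the 2 other tested class II chains (green) and the 7 promoter factors (purple); filled points passed an adjusted p of 0.05. The members lie at 1.33 to 2.39, Rfx5 at 1.28 and Rfxank at −0.87.

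Interferon gamma, the classical inducer of Ciita, was at up to 0.247 CPM in any liver and could not be tested. Of 14 tested genes of its axis, 7 were higher and 2 lower, with a median log2 fold change of 0.69. The receptor chains Ifngr1 and Ifngr2 were higher by 1.17 and 0.98 (adjusted p = 0.00243 and 0.00128), and the transcription factor Irf1, which acts on the Ciita promoter, by 0.97 (standard error 0.17, adjusted p = 0.00484). Il12rb1, a receptor chain for interleukin 12, was lower, at −1.27 on the log2 scale. The count of higher genes was 3 without WT 2 or Hom 2 and 4 without WT 3 or Hom 3.

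Genes that interferon gamma induces in many cells had a smaller median change than the class II genes. Of 16 tested, 4 were higher and 0 lower, with a median of 0.72. These were the chemokine Cxcl10 at 1.33, Gbp9 at 1.35, and the immunoproteasome subunits Psmb8 at 0.79 and Psmb10 at 0.72, of which Gbp9 lost its call without WT 2 and Psmb8 without WT 2 or WT 3. The count rested on few livers, being 2 without WT 2, 11 without Hom 1 and 9 without WT 1 and Hom 1, where the class II count stayed at 7. A difference between the class II genes and this list was not tested.

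MHC class I, which presents peptides from inside the cell and which nearly all cells make, served as the closest comparison. Its heavy chain H2-K1 was at 1245, 1043 and 1047 CPM in WT livers 1, 2 and 3 and 801, 1142 and 913 CPM in Hom livers (−0.22, standard error 0.17, adjusted p = 0.330). The light chain B2m was at −0.19 (adjusted p = 0.394), and both changed sign when libraries were scaled by size alone. Nlrc5, the class I counterpart of Ciita, was at 0.50 (adjusted p = 0.0519) and did not pass in 7 of 13 alternatives. In the others it passed, with an adjusted p of 0.0382 without WT 1 and Hom 1, for example. Without Hom 2 Nlrc5 was at 0.28. Of 18 class I genes, 5 were higher, Tap2 (0.63) and Tapbp (0.70, lost without WT 2 or WT 3) among them, and 1 lower, the liver gene H2-Q10 at −0.63, with a median of 0.29. The count of higher genes was 2 without WT 2 or WT 3, 8 without Hom 1 and 11 without WT 1 and Hom 1, and this list shares Psmb8, Psmb9 and Psmb10 with the interferon list. Within livers, the log2 ratio of H2-Aa to H2-K1 in TPM went from −4.30 ± 0.34 in WT to −1.76 ± 0.34 in Hom livers (SD, n = 3), without overlap.

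Enzymes that prepare the class II cargo were mostly not past the test. Of 13 proteases and related genes, 2 were higher and 1 lower, with a median of 0.11. Ctss, the protease that takes the invariant chain down to its last piece, was at 54.8, 23.8 and 28.2 CPM in WT livers 1, 2 and 3 and 78.0, 145 and 93.8 CPM in Hom livers (1.57, standard error 0.36, adjusted p = 0.0137). Its order of livers was close to that of the class II genes. Ifi30, the reductase that opens disulfide bonds of antigens, was at 0.18 (adjusted p = 0.404), Sppl2a, which clears the membrane stump of Cd74, at 0.35 (adjusted p = 0.0428, a call that 6 of 13 alternatives kept) and Ctsf at −0.54 (adjusted p = 0.00637). The count of higher genes was 1 without WT 2, WT 3, Hom 1 or Hom 2 and 4 without WT 1 and Hom 1.

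Of 11 genes of class II turnover and traffic, 3 were higher and 0 lower, with a median of −0.020. Cd83, which keeps class II on the surface of dendritic cells, was higher by 1.58 (adjusted p = 0.00450). The tetraspanins Cd9 and Cd63, which many cell types make, were higher by 2.30 and 2.26 (adjusted p = 0.00179 and 2.81e-04). Cd9 was highest in Hom 1, the liver in which the class II genes were the lowest of the Hom group.

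Of 6 tested ligands that meet T cells beside class II, 3 were higher and 0 lower, with a median of 1.18. They were Icosl at 2.58, the inhibitory Vsir at 1.44 and the inhibitory Cd274 (PD-L1) at 1.04 (adjusted p = 0.00174, 0.00272 and 0.0283). The call of Cd274 was lost when any liver other than Hom 1 was left out (adjusted p of 0.0564 to 0.0809). The activating ligands Cd80 and Cd86 were at 0.41 and 0.68 and did not pass (adjusted p = 0.352 and 0.168). Without WT 1 and Hom 1 Cd86 passed, at 1.21 (adjusted p = 0.0260), and 4 ligands were higher. Without Hom 2 Cd86 was at 0.33.

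Of 10 tested genes of the T cells that read class II, 5 were higher and 1 lower. Cd3g, Cd3e, Lck and Cd28 were higher by 1.74, 1.74, 1.47 and 2.13, at under 3.2 CPM in each liver, and 0 of the list were called as higher without WT 2 or Hom 3 and 1 without WT 3 or Hom 2. Cd4, the coreceptor for class II, was at 1.73, 3.85 and 3.07 CPM in WT livers 1, 2 and 3 and 1.49, 2.89 and 3.28 CPM in Hom livers (−0.17, adjusted p = 0.755). Lag3, an inhibitory receptor for class II, was lower, at −1.0 (adjusted p = 0.0390), a call that 1 of 13 alternatives kept.

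Markers of the cells that could carry class II moved in different ways. Among conventional dendritic cell markers, 5 of 13 were higher and 0 lower, with a median of 1.07, and their summed level was 25.8 to 41.1 CPM in WT and 86.9 to 138 CPM in Hom livers. Cd24a, which bile duct cells also make, was higher by 2.91 and gave 55.5% to 59.3% of the Hom sums; without it (chosen after the data were seen) the sum was 22.3 to 32.0 CPM in WT and 38.1 to 61.4 CPM in Hom livers. Itgax (CD11c) was at 1.84, 1.03 and 1.17 CPM in WT livers 1, 2 and 3 and 5.23, 14.6 and 12.2 CPM in Hom livers (2.97, standard error 0.44, adjusted p = 0.00272), and Naaa and Itgae were higher by 1.29 and 1.75. Without WT 1 and Hom 1, 9 markers were higher. The defining factor Zbtb46 was at 0.0094 (adjusted p = 0.973). Flt3 at 1.32 (adjusted p = 0.0521), Xcr1 at 1.07 (0.0932), Clec9a at 0.37 (0.446) and Batf3 at −0.037 (0.957) did not pass either. Zbtb46 and these markers were named after their values were seen.

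Among 13 markers of monocytes and recruited macrophages, 6 were higher and 1 lower, with a median of 1.37 and a summed level of 201 to 264 CPM in WT and 329 to 377 CPM in Hom livers. The chemokine receptor Cx3cr1 was at 1.79, 0.385 and 1.23 CPM in WT livers 1, 2 and 3 and 31.3, 36.2 and 26.3 CPM in Hom livers (4.75, standard error 0.39, adjusted p = 4.62e-04). Ccr2 and Trem2 were higher by 3.19 and 3.31. The count of higher markers was 3 without WT 2 or without Hom 2, and 8 without WT 1 and Hom 1.

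Kupffer cells are the resident macrophages of the liver. Of their 14 markers 0 were higher and 4 lower, with a median of −0.51 and a summed level of 420 to 976 CPM in WT and 582 to 768 CPM in Hom livers. Clec4f was at 125, 58.2 and 49.1 CPM in WT livers 1, 2 and 3 and 14.0, 34.2 and 29.1 CPM in Hom livers (−1.59, adjusted p = 0.0271, lost without WT 1, Hom 1 or Hom 3), Timd4 at −2.38 and Cd163 at −2.89 (lost without Hom 3). Like the class II genes, Clec4f was highest of the WT group in WT 1 and lowest of the Hom group in Hom 1. Of the markers that did not pass, C1qa, C1qb, C1qc, Csf1r, Adgre1 and Slc40a1 lay above 0, at 0.12 to 0.91. Vsig4, Cd5l, Marco and Folr2 lay under 0. These were named after their values were seen. The count of lower markers was 2 without Hom 1 and 1 without Hom 3, and 5 were higher without WT 1. Without WT 1 and Hom 1 together, 5 Kupffer markers were higher and 3 lower.

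B cell markers were scarce. Of 12, 6 could be tested and none passed (0 by edgeR, 0 by DESeq2, 1 at an unadjusted p under 0.05, median 0.79), the summed level was 4.94 to 11.1 CPM in WT and 8.91 to 12.9 CPM in Hom livers, and Ms4a1 was under 1 CPM in all livers. Without WT 1 or Hom 1, 1 passed as higher, and without both, 4. Of 4 tested plasmacytoid dendritic cell markers 2 were higher, Lair1 by 2.22 and Runx2 by 2.55, neither of which is made by that cell type alone. Their count was 1 without Hom 3, where Runx2 was lost (adjusted p = 0.0536), and 3 without Hom 1. Of 12 cholangiocyte (bile duct) markers 10 were higher, with a median of 2.74 and a summed level of 79.0 to 104 CPM in WT and 638 to 901 CPM in Hom livers, among them Spp1 by 3.78 and Krt19 by 3.26. Spp1, which other cell types also make, gave 78.3% to 81.5% of the Hom sums, and without it (chosen after the data were seen) the sum was 47.0 to 52.0 CPM in WT and 118 to 168 CPM in Hom livers. Of 12 sinusoidal endothelial markers 8 were lower, with a median of −0.91 and a summed level of 339 to 460 CPM in WT and 212 to 222 CPM in Hom livers, and of 20 hepatocyte markers 11 were lower, with a median of −0.68 (7 without WT 2 and 6 without Hom 3). The part of each of these cell types in the class II values was not tested.

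**Figure D5:**
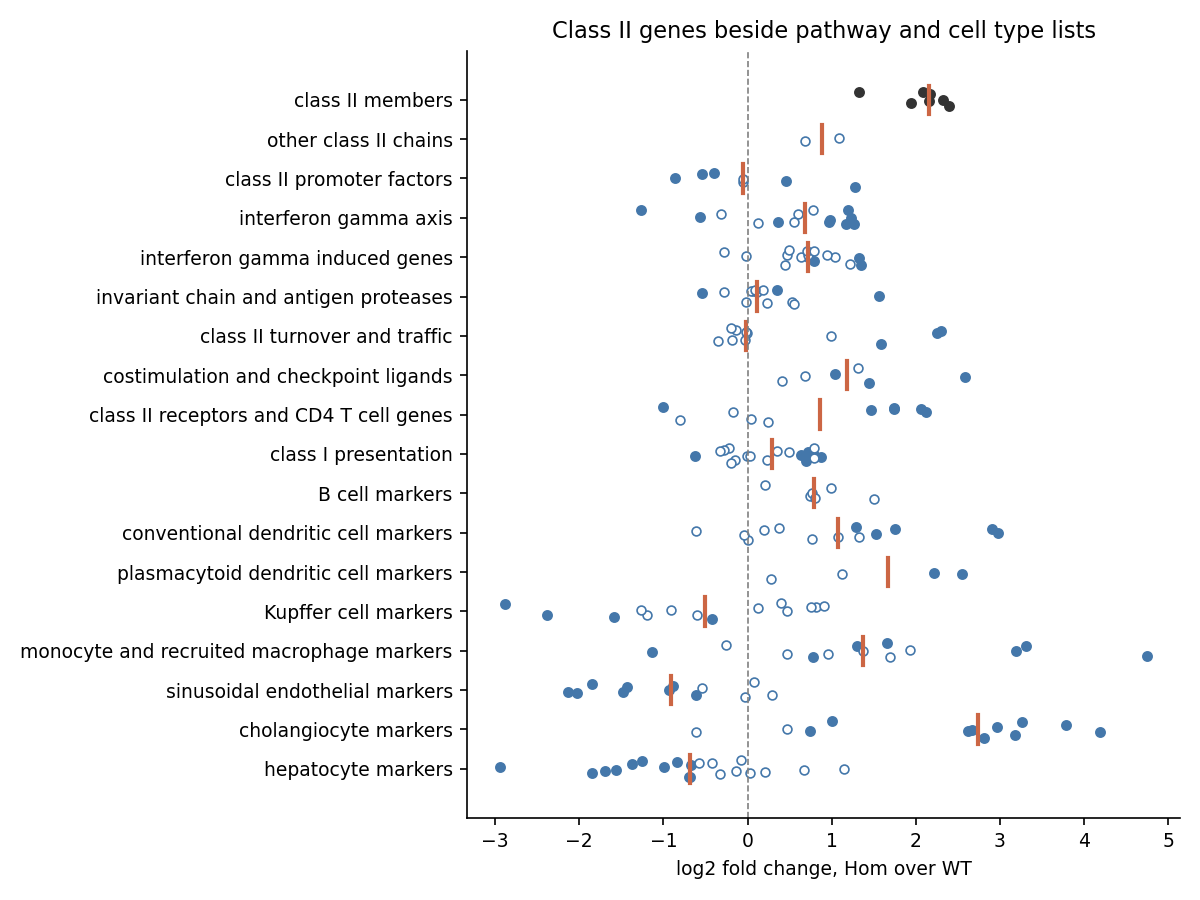
Log2 fold change of Hom over WT of each tested gene, by list; black points are the class II members, blue points the genes of the other lists, filled points passed an adjusted p of 0.05, and the orange line is the median of a list. The class II members lie at 1.33 to 2.39 with a median of 2.16, beside medians of 1.07 for conventional dendritic cell, 1.37 for monocyte and recruited macrophage, −0.51 for Kupffer cell and 0.29 for class I genes.

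The pattern of the class II genes over the 6 livers was compared with that of each other gene by Pearson's r, against the mean of the scaled log2 CPM of the members other than Ciita. The 5 genes most like it were Pik3ip1, Actr3, Abcc12, Cenpe and Wipf1, at r = 1.00, 0.999, 0.997, 0.997 and 0.997 over 6 livers. They differed between the groups by amounts as unlike as 0.36 for Actr3 and 2.83 for Abcc12 on the log2 scale, since r does not depend on the size of a change. Ciita itself stood at r = 0.995, rank 13 of 13799 genes, Itgax at 0.990 and Ptprc at 0.966. As 703 genes had r of at least 0.95 in these livers, which share the contrast of WT and Hom, the ranks are a description with no test.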

How the data were processed

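Liver RNA of 3 WT and 3 Hom mice was sequenced by BGI Genomics (DNBSEQ). The submitters' processing notes name HISAT2 2.0.4, Bowtie2 2.2.5, RSEM 1.2.12 and the build mm9, without their roles; annotation and strandedness were not given in the sources used here. The authors deposited estimated counts (not scaled between samples), FPKM values (divided by gene length and library size by the authors) and TPM values for each liver. FPKM values served as an alternative for the order of levels, and the deposited TPM values served for levels between genes and for ratios within a liver. Also, 6 columns of group means were left out because their names are crossed.

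Estimated counts were rounded (65.9% were whole within 0.001) and tested in R 4.3.3 with edgeR 4.0.16 (filterByExpr, TMM, glmQLFit, glmQLFTest), with Benjamini-Hochberg adjustment over 13805 genes, a threshold of 0.05 and no minimum fold change. The standard error is the size of the log2 fold change over the square root of F. The procedure was tested on simulated data. Totals of 19349418 to 19730236 counts limit mainly genes with few counts. Libraries of a group differed by more than counting noise (chi-square over its degrees of freedom at least 22.3), so none was counted as a duplicate. Nothing beyond 1 liver per mouse describes how samples were taken.

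The members and the lists were chosen with earlier results of these data known. Named were all members, Nek7 and Ptprc, the other class II chains, the promoter factors, Ifng, Irf1, Nlrc5, Ctss, Ifi30, Cd4, Lag3, Cd80, Cd86, B2m and H2-K1, up to 4 called genes of each other list with the smallest adjusted p, and the 5 genes of most similar pattern; a few items these rules name are not reported here. Genes of the class II region, Zbtb46 and other dendritic and Kupffer cell markers that did not pass were named beside these. Alternatives were DESeq2 1.42.0, library size alone, upper-quartile factors, other filters, the replicate number as a block, leaving out each liver, 0.1 added to each TPM value, FPKM in place of TPM and a minimum log2 fold change of 1. Leaving out WT 1 and Hom 1 together, the paired promoter letters with TGATTGG alone, and the ratios of H2-DMa, H2-DMb1 and Ciita to H2-Aa and of H2-Aa to H2-K1, and marker sums without Cd24a or Spp1 were added after seeing the data. Positions are from GENCODE M21 on GRCm38, not the authors' build.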

Additional observations from a re-analysis of the deposited data

How the results depend on the processing

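All 7 class II genes stayed higher and past the threshold under each of 13 alternatives, with log2 fold changes of 1.13 to 2.98 and a largest adjusted p of 0.0493 (H2-DMa without WT 2). The upper end came from the fit without WT 1 and Hom 1, in which larger fold changes were set in advance. The count of called members was 7 throughout, leave-one-out included (7 to 7), and FPKM gave the 7 genes the same order of levels as TPM in both groups. Scaling by library size alone moved the median of all genes to 0.45 on the log2 scale, gave 642 lower and 6574 higher genes in place of 2780 and 2974, and raised the share of higher among called genes from 51.7% to 91.1%, while upper-quartile factors gave 62.8%. A minimum log2 fold change of 1 left 575 lower and 1825 higher genes. Leaving out 1 liver at a time gave 1767 to 2750 lower and 1986 to 3057 higher genes, with 1829 lower without Hom 2 and 1767 without Hom 3.

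WT and Hom livers share replicate numbers but come from different mice, and same-numbered livers did not deviate together (correlations of −0.11, −0.056 and −0.049). Without WT 1 and Hom 1, 2871 genes were lower and 3339 higher. The replicate block gave 2214 lower and 2383 higher genes and 7 called members.

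For the 75 other tested genes that the naming rules give, 844 of 964 comparisons with an alternative kept direction and call, 92 lost the call, 13 gained it and 15 changed sign. With library size alone the sign changed for Nfyb (0.060), Nfyc (0.40), Creb1 (0.39), Cd4 (0.32), B2m (0.27), H2-K1 (0.23) and Mrc1 (0.027), and with upper-quartile factors for Nfyc (0.041) and Creb1 (0.034). It also changed without WT 1 for Nfyc (0.017) and Creb1 (0.010), without WT 1 and Hom 1 for Nfyc (0.013) and Creb1 (0.0077), and for Cd4 without WT 2 (0.089) and without Hom 1 (0.098). Leaving out 1 liver at a time gave −0.096 to 0.017 for Nfyc, −0.14 to 0.010 for Creb1 and −0.44 to 0.098 for Cd4. The cause was not tested beyond the shift of all genes under library size alone.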
